A study of Mus musculus with 12 samples.

Results

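The genes described here are 10 mouse germline genes that are known targets of silencing by DNA methylation outside the germ line: Dazl, Boll, Stk31, Mael, Asz1, Tex19.1, Slc25a31, Sycp1, Sycp3 and Hormad1. They were taken by symbol from a table of RNA counts in embryonic stem cells that holds 43346 genes, and all 10 were found in it and passed the filter on low counts that left 17148 genes for testing. The set was put forward with results of these data in view, and Boll was chosen by its measured level in these libraries, after it was seen to follow the chromosome 13 segment, so the values of Boll are given as a description, with no test, and counts of changed genes are over the other 9.

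RNA was sequenced in 12 libraries, 3 from each of 4 groups of mouse embryonic stem cells. B6 is the inbred strain C57BL/6J and D2 is DBA/2J. B6-13D2 has the genotype B6.D2-(rs30079041-rs51756099)/Bakr, a D2 segment of chromosome 13 on a B6 background, and D2-13B6 has the genotype D2.B6-(rs29224292-rs13469455)/Bakr, a B6 segment on a D2 background; the series text gives another end marker for the latter. All groups were grown alike, in medium with 15% serum, LIF, 1 µM PD0325901 (an inhibitor of MEK) and 3 µM CHIR99021 (an inhibitor of GSK3). Each group was sampled as separate cultures of 1 line by the protocol, although the titles call the samples technical replicates and give B6 replicate 3 another line name than the other B6 samples, and for D2 the line in the titles is not the one in the cell line field. The p-values therefore measure the spread between these samples, and a difference between strains cannot be told apart from a difference between lines. None of the 10 genes lies on chromosome 13 (0 of 10).

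Many germline genes carry promoters rich in CpG that become methylated in the embryo after implantation and stay silent in the body. They are demethylated and switched on in germ cells, where their products run meiosis, the translation of stored mRNA and the control of transposons by piRNAs. In embryonic stem cells many of them are also held down by a Polycomb complex, PRC1.6, whose subunit E2F6 binds the letters TCCCGC and whose subunits MGA and MAX bind the E-box CACGTG. Inhibition of MEK and GSK3 is known to lower DNA methylation in such cells. Methylation was not measured in the data used here.

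The upstream sequences of 6 of the genes are shown, to let their CpG content and the letters of these repressors be compared, since some of the 6 hold those letters and others do not. Sequences are from RefSeq on GRCm38.p6, written 5′ to 3′ on the strand of the gene, and cover at most 250 bases before the transcription start, ended before the first annotated exon base. Capitals mark the TCCCGC motif, the CACGTG motif or the reverse complement of the former.
Dazl, chr17:50293637-50293870, minus strand: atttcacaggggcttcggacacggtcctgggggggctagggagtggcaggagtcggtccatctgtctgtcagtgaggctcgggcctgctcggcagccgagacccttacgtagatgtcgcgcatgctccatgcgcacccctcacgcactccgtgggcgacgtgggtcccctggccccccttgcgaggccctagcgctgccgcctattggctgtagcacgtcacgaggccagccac
Boll, chr1:55362729-55362978, minus strand: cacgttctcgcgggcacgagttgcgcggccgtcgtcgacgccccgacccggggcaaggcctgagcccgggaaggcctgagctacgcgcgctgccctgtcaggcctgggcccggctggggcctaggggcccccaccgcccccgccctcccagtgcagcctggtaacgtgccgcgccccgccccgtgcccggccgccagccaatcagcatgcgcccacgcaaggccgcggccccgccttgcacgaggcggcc
Tex19.1, chr11:121145893-121146142, plus strand: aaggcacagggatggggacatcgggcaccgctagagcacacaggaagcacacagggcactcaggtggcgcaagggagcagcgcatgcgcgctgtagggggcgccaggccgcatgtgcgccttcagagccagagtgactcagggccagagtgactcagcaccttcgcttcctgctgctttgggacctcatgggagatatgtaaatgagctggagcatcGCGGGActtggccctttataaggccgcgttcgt
Sycp1, chr3:102936101-102936350, minus strand: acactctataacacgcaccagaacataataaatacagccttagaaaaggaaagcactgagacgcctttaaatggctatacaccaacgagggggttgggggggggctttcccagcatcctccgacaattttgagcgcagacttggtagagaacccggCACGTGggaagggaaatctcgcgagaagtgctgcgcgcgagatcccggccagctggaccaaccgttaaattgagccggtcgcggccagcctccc
Sycp3, chr10:88459337-88459568, plus strand: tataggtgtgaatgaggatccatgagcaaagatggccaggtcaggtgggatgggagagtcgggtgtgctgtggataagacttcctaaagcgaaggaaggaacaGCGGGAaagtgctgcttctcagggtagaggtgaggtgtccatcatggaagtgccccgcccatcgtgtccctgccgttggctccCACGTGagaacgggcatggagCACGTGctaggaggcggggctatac
Hormad1, chr3:95559427-95559676, plus strand: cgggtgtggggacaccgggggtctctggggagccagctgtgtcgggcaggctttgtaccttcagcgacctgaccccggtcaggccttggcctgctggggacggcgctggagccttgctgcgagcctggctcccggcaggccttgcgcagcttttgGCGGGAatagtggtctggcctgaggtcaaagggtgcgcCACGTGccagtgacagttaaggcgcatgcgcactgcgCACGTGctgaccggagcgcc

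All 10 genes matched the RefSeq table, with 13 windows because Boll, Stk31 and Hormad1 have 2 annotated starts each. The full windows of 250 bases held from 11 to 33 CpG dinucleotides, against a median of 6 and quartiles of 2 and 16 over all 32817 windows of that length. The Boll window shown has the most CpG, and it lies inside the gene as GENCODE draws it, outside any exon. TCCCGC on either strand was found in 5 of the 13 windows, from 4 genes, and in 16.9% of all windows. CACGTG, which is its own reverse complement, was found in 9 of the 13 windows, from 7 genes, and in 6.02% of all windows. Both were found in 4 of the 13 windows and in 1.44% of all. Hormad1 and Sycp3 each had 1 TCCCGC match and 2 CACGTG matches, and the windows of Dazl and Asz1 and the Boll window shown had neither. The other Boll window, which is not shown, held 1 CACGTG match. With the 50 bases after the start added, TCCCGC was found for 7 genes, with Sycp1, Slc25a31 and the Boll window shown added, and in 20.0% of all windows of 300 bases, and CACGTG still for 7 genes and in 7.15%. These matches are descriptions of letters, and windows of 1 gene overlap or lie close together.

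The genes differed widely in level. CPM values, which are counts scaled to a common library size after TMM normalization, were divided by the exon length in kb, and the median of all tested genes on that scale lay between 3.23 and 3.53 in the 4 groups. Tex19.1, which restrains transposons in germ cells and placenta, had 23.9 to 41.5 CPM per kb, at the 87.0th to 93.1st percentile of tested genes. Hormad1, a protein of the meiotic chromosome axis, had 6.80 to 24.6 CPM per kb, at the 63.3rd to 87.7th percentile. These 2 genes were above the median gene in every group. Dazl and Sycp3 lay on both sides of it, and the other 6 were below it in every group. Asz1 had 0.0457 to 0.250 CPM per kb and was lowest in B6 and B6-13D2. Boll had 0.0726 to 0.934 and was lowest in D2, and Sycp3, with 0.229, was lowest in D2-13B6. The name of the group, silenced genes, thus describes Tex19.1 and Hormad1 poorly in these cells.

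**Figure D1:**
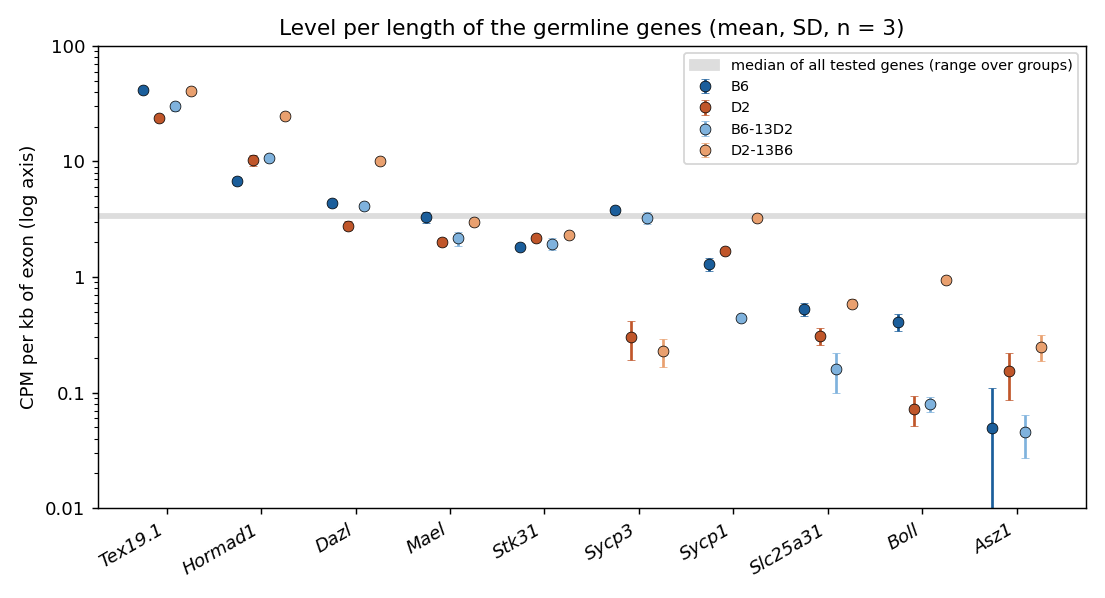
Level of each germline gene in CPM per kb of exon (log axis), as the mean of 3 libraries with bars of 1 SD; the grey band is the range over groups of the median of all tested genes. Tex19.1 and Hormad1 lie above the band in every group, and the lower bar of Asz1 in B6 leaves the axis because its SD exceeds its mean.

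Dazl and Boll encode RNA-binding proteins of 1 family that control translation of mRNA in germ cells. Dazl (ENSMUSG00000010592, minus strand of chromosome 17, 50279395 to 50293636) was read at 15.3, 17.5 and 17.2 CPM in B6 and at 10.4, 11.8 and 9.83 CPM in D2. B6-13D2 had 15.5, 16.2 and 15.4 CPM, and D2-13B6 had 39.3, 39.5 and 37.5 CPM. The D2-13B6 libraries thus stood above all others, the D2 libraries were lowest, and B6 and B6-13D2 overlapped. Dazl was 3.60-fold higher in D2-13B6 than in D2 (log2 fold change 1.85, SE 0.066, adjusted p = 2.91e-13 by edgeR's quasi-likelihood test). It was also higher in D2-13B6 than in B6, by 1.22 on the log2 scale (SE 0.064, adjusted p = 2.71e-11). In B6-13D2 over B6 its log2 fold change was -0.08, with an interval of 2 SE from -0.22 to 0.06 (adjusted p = 0.332). Scaled to stem cell markers, that value was -0.24 and was called (adjusted p = 0.00638), where 45.2% of all genes were called lower. The difference between the segment effects on the 2 backgrounds was itself past the threshold (1.76, SE 0.097, adjusted p = 2.22e-11), and it cannot be told apart from differences between lines.

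Boll (ENSMUSG00000025977, minus strand of chromosome 1, 55248658 to 55363469) was read at 1.36, 1.72 and 1.24 CPM in B6 and at 3.32, 3.43 and 3.10 CPM in D2-13B6, the groups with the B6 segment. In the groups with the D2 segment it was at 0.250, 0.334 and 0.182 CPM in D2 and at 0.312, 0.235 and 0.302 CPM in B6-13D2. The lowest library with the B6 segment had 1.24 CPM and the highest with the D2 segment had 0.334 CPM, so the 2 sets did not overlap, which is the pattern Boll was chosen for. Its log2 fold change was -2.34 in B6-13D2 over B6 and 3.60 in D2-13B6 over D2. The D2 and B6-13D2 libraries rest on 3.5 to 12 expected counts each, and in 6 libraries the count was not whole, which marks reads shared with other features. A pseudogene, Gm8292, overlaps Boll on the other strand.

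Mael, Asz1, Stk31 and Tex19.1 act in or near the piRNA pathway and the control of transposons. Tex19.1 (ENSMUSG00000039329, plus strand of chromosome 11, 121146143 to 121148319) was read at 77.8, 74.0 and 81.2 CPM in B6 and at 76.4, 75.7 and 77.3 CPM in D2-13B6. D2 had 45.7, 46.8 and 41.7 CPM, and B6-13D2 had 56.5, 60.4 and 51.4 CPM. All libraries with the B6 segment were thus above all libraries with the D2 segment. Tex19.1 fell by 0.47 on the log2 scale in B6-13D2 over B6 (SE 0.055, adjusted p = 9.15e-07) and rose by 0.77 in D2-13B6 over D2 (SE 0.055, adjusted p = 1.68e-09). In D2-13B6 over D2 the 1386 tested genes of chromosome 11 had a median log2 fold change of 0.39, while genes of the other autosomes had -0.03. The rise of Tex19.1 was 0.38 above its chromosome's median in that comparison, and the part of the chromosome-wide shift in it was not tested. In B6-13D2 over B6 the chromosome 11 median was -0.0011.

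Mael, which encodes the piRNA pathway protein Maelstrom (ENSMUSG00000040629, minus strand of chromosome 1, 166201201 to 166238747), had almost the profile of Tex19.1. B6 had 5.89, 6.21 and 5.02 CPM, D2 had 3.54, 3.70 and 3.19, B6-13D2 had 3.12, 4.09 and 4.00, and D2-13B6 had 5.02, 4.95 and 5.58. The highest library with the D2 segment had 4.09 CPM and the lowest with the B6 segment had 4.95 CPM. Mael fell by 0.61 in B6-13D2 over B6 (SE 0.129, adjusted p = 5.55e-04) and rose by 0.56 in D2-13B6 over D2 (SE 0.128, adjusted p = 0.00106). Over the 4 group means, each gene centred on its own mean, Mael and Tex19.1 were the nearest pair among the 10 genes, with a root mean square distance of 0.092 on the log2 scale.

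Stk31, a kinase-like protein of germ cells with a tudor domain (ENSMUSG00000023403, plus strand of chromosome 6, 49395604 to 49469501), varied least. The B6 libraries had 6.06, 5.83 and 5.70 CPM, D2 had 6.83, 7.31 and 7.01, B6-13D2 had 7.03, 6.17 and 5.59, and D2-13B6 had 7.40, 7.36 and 7.48. Its highest group mean was 1.26-fold its lowest. The log2 fold change was 0.10 in B6-13D2 over B6 (interval of 2 SE from -0.10 to 0.29) and 0.07 in D2-13B6 over D2 (-0.11 to 0.25), neither of them called. The call in D2 over B6 (log2 fold change 0.27, adjusted p = 0.0238) was lost without B6 replicate 2, B6 replicate 3 or D2 replicate 2, with adjusted p of 0.0549, 0.0677 and 0.0853, and with no filter on low counts (0.0604).

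Asz1, an ankyrin-repeat protein of the piRNA machinery (ENSMUSG00000010796, minus strand of chromosome 6, 18050964 to 18109061), was close to the limit of detection. B6 had 1, 8 and 1 counts, D2 had 14, 8 and 11, B6-13D2 had 2, 5 and 4, and D2-13B6 had 26, 19 and 26. The lines on the D2 background had a mean of 0.435 ± 0.189 CPM in D2 and 0.708 ± 0.179 CPM in D2-13B6, and those on the B6 background 0.141 ± 0.169 CPM in B6 and 0.129 ± 0.0527 CPM in B6-13D2 (SD, n = 3). B6 replicate 2 overlapped D2, and the call in D2 over B6 (log2 fold change 1.52, adjusted p = 0.0478) held in 7 of 18 other settings, with adjusted p from 0.00309 to 0.177. With single libraries left out its value ran from 1.09 to 3.14. It was lost without any library of B6-13D2 or D2-13B6, without B6 replicate 1 or 3 and without D2 replicate 1 or 3, and with the replicate number as a block (adjusted p = 0.0669). No difference between a congenic line and its own background strain was called. The filter on low counts asked for 0.368 CPM in 3 libraries, which Asz1 reached in all 3 of D2-13B6, 2 of D2 and none of the others, so it was tested only through its highest group, the 1 gene of the 10 of which that holds.

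Slc25a31 encodes the ADP/ATP carrier of mitochondria in male germ cells (ENSMUSG00000069041, plus strand of chromosome 3, 40708855 to 40726096). Its levels were 1.01, 1.09 and 1.29 CPM for B6, 0.708, 0.528 and 0.728 for D2, 0.485, 0.235 and 0.302 for B6-13D2, and 1.34, 1.30 and 1.12 for D2-13B6, from 7 to 49 counts a library. The highest library with the D2 segment, at 0.728 CPM, was below the lowest with the B6 segment, at 1.01 CPM. Slc25a31 fell by 1.72 in B6-13D2 over B6 (SE 0.311, adjusted p = 1.24e-04) and rose by 0.96 in D2-13B6 over D2 (SE 0.272, adjusted p = 0.00569). Its lower level in D2 than in B6 (log2 fold change -0.81, adjusted p = 0.0213) was not called without B6 replicate 3 or D2 replicate 2, with adjusted p of 0.0733 and 0.0975, or by DESeq2 (0.0680). Scaled to stem cell markers, that value was -0.32 and was not called (adjusted p = 0.320 in edgeR), where 69.7% of all genes were called higher.

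Sycp1, Sycp3 and Hormad1 encode parts of the meiotic chromosome, the transverse filament of the synaptonemal complex, its lateral element and a protein of unsynapsed axes. Sycp1 (ENSMUSG00000027855, minus strand of chromosome 3, 102818499 to 102936100) was read at 4.26, 5.33 and 4.24 CPM in B6 and at 6.12, 6.01 and 5.96 CPM in D2. B6-13D2 had 1.49, 1.58 and 1.66 CPM, and D2-13B6 had 11.2, 12.2 and 11.4 CPM. Both congenic lines thus lay outside the range of the parental strains, on opposite sides, and no 2 groups overlapped. Sycp1 fell by 1.55 in B6-13D2 over B6 (SE 0.130, adjusted p = 1.12e-08) and rose by 0.95 in D2-13B6 over D2 (SE 0.092, adjusted p = 8.55e-08). It was also lower in B6-13D2 than in D2, which has the same segment alleles, with a log2 fold change of -1.94 (SE 0.123, adjusted p = 8.92e-11). In D2-13B6 over B6 the value was 1.33 (SE 0.097, adjusted p = 2.27e-09). Of the 3 pseudogenes that overlap Sycp1, all lie on the other strand, and its counts were whole in every library.

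Sycp3 (ENSMUSG00000020059, plus strand of chromosome 10, 88459569 to 88473236) followed the background strain. It was read at 5.14, 4.45 and 4.80 CPM in B6 and 4.15, 3.66 and 4.57 CPM in B6-13D2, but at 0.541, 0.334 and 0.273 CPM in D2 and 0.219, 0.277 and 0.374 CPM in D2-13B6. The lowest library on the B6 background was far above the highest on the D2 background, and its highest group mean was 16.5-fold its lowest, the widest span of the 10 genes. Sycp3 was lower in D2 than in B6 by 3.64 on the log2 scale (log2 fold change -3.64, SE 0.226, adjusted p = 3.02e-10). Neither segment gave a called change: the log2 fold change was -0.22 in B6-13D2 over B6 (2 SE interval -0.54 to 0.10) and -0.41 in D2-13B6 over D2 (-1.08 to 0.26). Its counts were not whole in any of the 12 libraries, and it overlaps the broadly expressed gene Chpt1 on the other strand, so reads that the 2 genes share are uncertain where strand was not used.

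Hormad1 (ENSMUSG00000028109, plus strand of chromosome 3, 95559677 to 95587671) was read at 11.3, 12.8 and 11.1 CPM in B6 and at 15.8, 18.1 and 19.8 CPM in D2. B6-13D2 had 18.3, 18.5 and 18.6 CPM, and D2-13B6 had 42.9, 41.6 and 43.4 CPM. It was higher in each congenic line than in its background strain, 1.57-fold in B6-13D2 (log2 fold change 0.65, SE 0.076, adjusted p = 8.62e-07) and 2.38-fold in D2-13B6 (1.25, SE 0.064, adjusted p = 2.20e-11). B6-13D2 and D2 overlapped, with a log2 fold change of 0.05 (2 SE interval -0.09 to 0.19). Scaled to stem cell markers, that value was -0.60 and was called (adjusted p = 1.46e-06), where 71.7% of all genes were called lower. Both segments thus went with a higher level of Hormad1 in the congenic line, in contrast to Mael, Tex19.1, Slc25a31 and Sycp1.

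**Figure D2:**
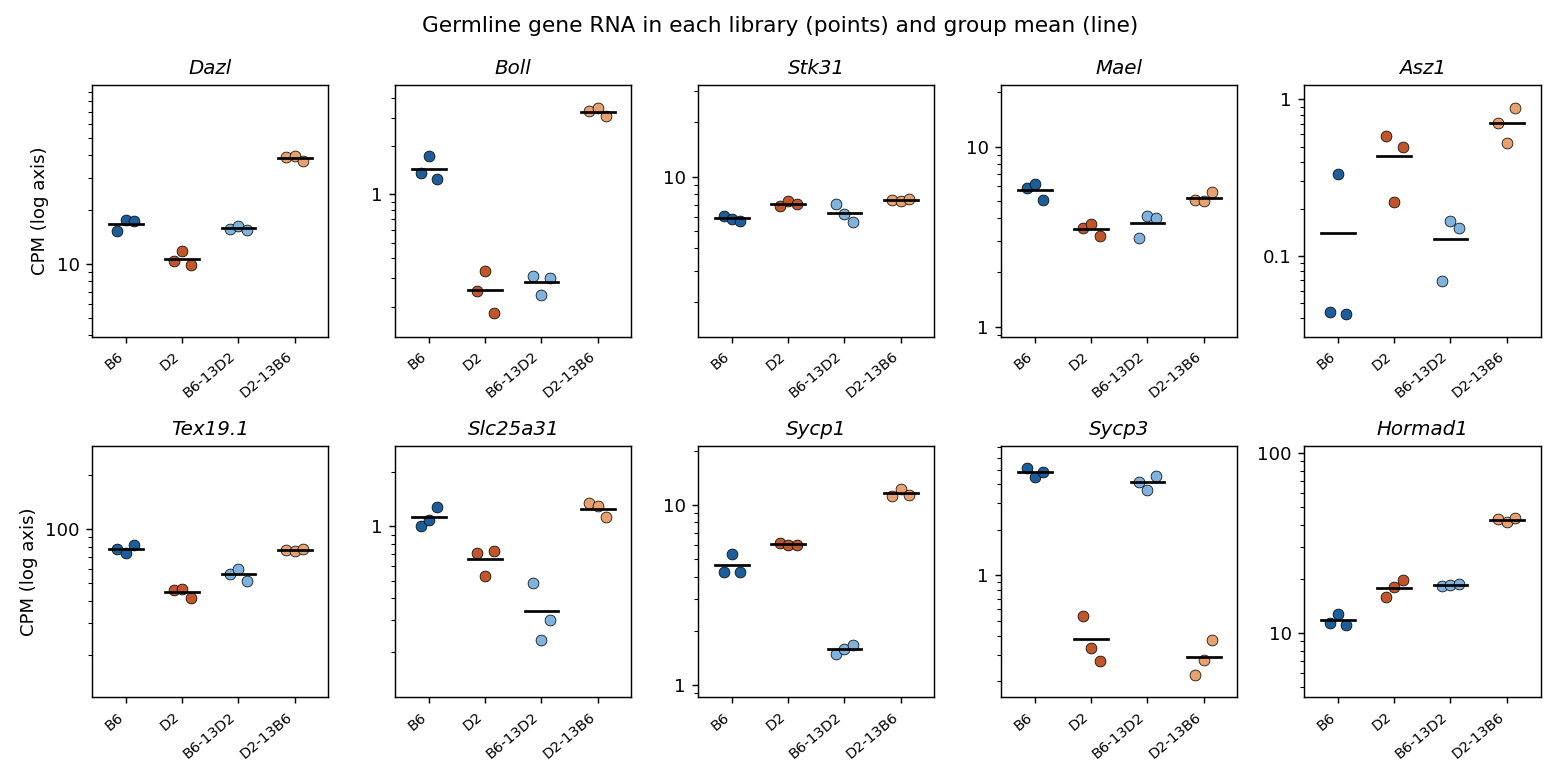
CPM (log axis) of each germline gene in every library (points) of the 4 groups, with the group mean as a line; the span of the axis differs between genes. The 3 D2-13B6 points of Dazl, Boll, Sycp1, Stk31 and Hormad1 lie above every other point, and Sycp3 separates by background strain.

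The parental strains differed in all 9 genes other than Boll (4 higher and 5 lower in D2), where 60.0% of all tested genes were called, 29.8% higher and 30.3% lower. The calls of Asz1, Stk31 and Slc25a31 were among them and depended on single libraries. With scaling to stem cell markers the split was 4 higher and 2 lower, where 69.7% of all genes were higher and 7.21% lower. Sycp3 and Asz1, 2 of 9, were called with a log2 change of 1 or more in size, against 11.3% of all genes. In B6-13D2 over B6, 5 of 9 were called (Hormad1 higher, Mael, Sycp1, Tex19.1 and Slc25a31 lower), against 58.3% of all genes (25.4% higher and 32.9% lower). In D2-13B6 over D2, 6 of 9 were called, against 57.3%, and all 6 were higher (Dazl, Mael, Sycp1, Hormad1, Tex19.1 and Slc25a31), where 27.6% of all genes were called higher and 29.7% lower. For both congenic comparisons the share of the 9 genes that was called is close to the share over all genes. In size, the log2 changes of the 9 genes had a median of 0.71, 0.47 and 0.77 in the 3 comparisons, beside 0.33, 0.32 and 0.31 over all genes.

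Each congenic line was also compared to the parent that shares its segment alleles. In B6-13D2 over D2, 6 of 9 genes were called, 3 in each direction, against 74.6% of all genes (36.7% higher and 38.0% lower). Scaled to stem cell markers, 1 was higher and 7 were lower, where 10.2% and 71.7% of all genes were. The calls of Asz1 (log2 fold change -1.66) and Slc25a31 (-0.91) there were lost without D2 replicate 1 or D2 replicate 3, that of Asz1 also without B6-13D2 replicate 1, and that of Slc25a31 also without B6-13D2 replicate 2 or 3, with adjusted p from 0.0541 to 0.0945. Without B6-13D2 replicate 1, Stk31 was called (-0.26, adjusted p = 0.0252). In D2-13B6 over B6, 6 of 9 were called, against 59.0%, with 5 higher (Dazl, Sycp1, Stk31, Asz1 and Hormad1) and Sycp3 lower (Asz1 was tested only through its level in D2-13B6), where 24.5% of all genes were higher and 34.6% lower. In that comparison 5 of 9 (Dazl, Sycp1, Sycp3, Hormad1 and Asz1) were called with a log2 change of 1 or more in size, against 11.6% of all genes. The rise of Asz1 (2.26) in that count is tied to the filter, which it passed only through D2-13B6. The 2 comparisons of D2-13B6 share its 3 libraries. Dazl and Hormad1 were at least 1 log2 unit higher in D2-13B6 than in both D2 and B6, 2 of 9 genes, against 2.00% of all genes. All 3 D2-13B6 libraries were above all other libraries for Dazl, Sycp1, Stk31 and Hormad1, 4 of 9 genes, against 11.7% of all genes. In both congenic lines against both parental strains, 4 of 9 genes were called (Dazl, Hormad1 and Tex19.1 higher, Sycp1 lower), against 64.5% of all genes, and with scaling to stem cell markers 2 were higher and 4 lower, where 13.5% and 52.2% of all genes were. On the linear scale the mean of Sycp1 was 5.32 CPM in the parental and 6.59 CPM in the congenic groups, the opposite direction, since the comparison averages log2 values. Slc25a31 was also called in it without B6-13D2 replicate 1 (-0.55, adjusted p = 0.0399). The median size of the log2 change of the 9 genes was 0.55 in B6-13D2 over D2 beside 0.53 over all genes, 1.22 in D2-13B6 over B6 beside 0.30, and 0.30 in the congenic lines over the parental strains beside 0.27.

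A gene was said to follow the segment allele where both congenic lines differed from their background strain in opposite directions. Besides Boll, 4 of 9 did so, Mael, Sycp1, Tex19.1 and Slc25a31, against 7.33% of all tested genes (1257), and the 2 comparisons share no library. All 4 had the higher level with the B6 segment on each background, as did 4.31% of all tested genes. For Sycp1 this held only within a background, since D2 (6.03 CPM) lay above B6 (4.61 CPM). The count was 4 without any single library, 3 where genes needed a mean CPM of 1 (Slc25a31 was then not tested) and 5 where libraries were scaled to stem cell markers (Dazl was added, and the share over all genes was 7.40%). No gene of the 9 was called with a log2 change of 1 or more in size in both comparisons by edgeR.

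**Figure D3:**
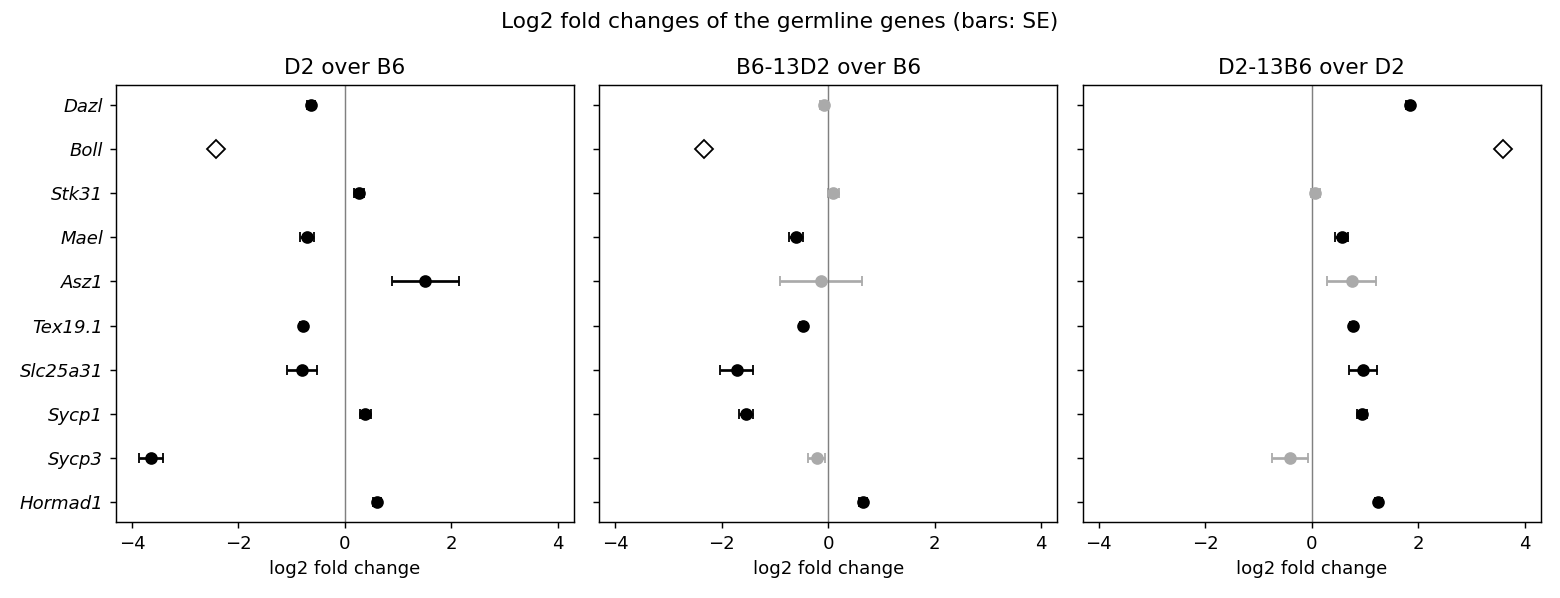
Log2 fold changes of the 10 genes in 3 comparisons, with bars of 1 SE; black points were called by edgeR at an adjusted p under 0.05, grey points were not, and Boll (open diamond) was not tested. Mael, Tex19.1, Slc25a31 and Sycp1 lie left of 0 in B6-13D2 over B6 and right of 0 in D2-13B6 over D2.

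A list of 54 other germline genes was measured beside the 10, of which 47 were tested. In B6-13D2 over B6, 25 of 47 were called (15 higher, 10 lower), or 53.2%, where 58.3% of all genes were. With scaling to stem cell markers, described with the data processing, the split was 12 higher and 13 lower, where 14.2% and 45.2% of all genes were. Among called genes with a mean log2 CPM of 0 or more, the lowest were Brdt (log2 fold change -1.79), a testis bromodomain protein, Taf7l (-1.73), a germ cell form of a TFIID subunit, and Tdrd7 (-1.24), a tudor protein. The highest were Fkbp6 (1.39), a piRNA pathway cochaperone, Dmc1 (1.02), the meiotic recombinase, and Syce2 (1.00), of the synaptonemal complex. In D2-13B6 over D2, 30 of 47 were called, or 63.8% beside 57.3% of all genes, 22 higher and 8 lower, with 14 higher and 1 lower by at least 1 log2 unit, where 4.17% of all genes were called higher and 4.79% lower by that much.

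Under the same limit on level, the highest in D2-13B6 over D2 were Hormad2, a paralog of Hormad1, Smc1b, a meiotic cohesin subunit, and Tex19.2, the neighbouring copy of Tex19.1. Hormad2 was read at 0.703 ± 0.245 CPM in D2 and 5.92 ± 0.461 CPM in D2-13B6, with a log2 fold change of 3.00 (SE 0.215, adjusted p = 1.67e-09). Smc1b was read at 1.88 ± 0.273 and 11.7 ± 0.881 CPM, with a value of 2.65 (SE 0.165, adjusted p = 2.61e-10). Tex19.2 had a value of 1.80. Hormad2 and Tex19.2 lie on chromosome 11, with the shift given above, and Smc1b lies on chromosome 15. The lowest above that limit were Mei4 (-0.998), needed for meiotic DNA breaks, Tex15 (-0.57) and D1Pas1 (-0.52). Tdrd1, a tudor protein of the piRNA pathway, was under the limit and was the gene called lower by at least 1 log2 unit (-2.08, adjusted p = 0.0103 in edgeR); it was named after its values were seen.

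In D2 over B6, 33 of the 47 were called, 9 higher and 24 lower, or 70.2% beside 60.0% of all genes (29.8% higher, 30.3% lower), with a median log2 fold change of -0.51 beside 0.01 over all genes. The split was 18 higher and 14 lower with scaling to stem cell markers, where 69.7% and 7.21% of all genes were. With the limit on level, the lowest were Tdrd12 (-3.06), Stra8 (-2.90), the trigger of meiotic entry, and Meioc (-2.24), and the highest were Tuba3a (1.74), Fkbp6 (1.26) and Tdrd5 (1.16). Tuba3a had counts divided among features, as close paralogs do. Of the 47, 21 were called in both congenic comparisons, 15 of them in the same direction, or 44.7% and 31.9% of the 47, where 39.6% and 32.2% of all tested genes were. The other 6 went in opposite directions, where 7.33% of all tested genes did. Within each background, Taf7l, Brdt, Sohlh2 and Tex19.2 were higher with the B6 segment, and Fkbp6 and Piwil2 were higher with the D2 segment. Brdt was the one that did so by at least 1 log2 unit in both, where B6 had 4.03 ± 0.0425 CPM, D2 3.92 ± 0.350, B6-13D2 1.16 ± 0.137 and D2-13B6 9.63 ± 0.850 (SD, n = 3). Like Sycp1, it was lowest in B6-13D2 and highest in D2-13B6.

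**Figure D4:**
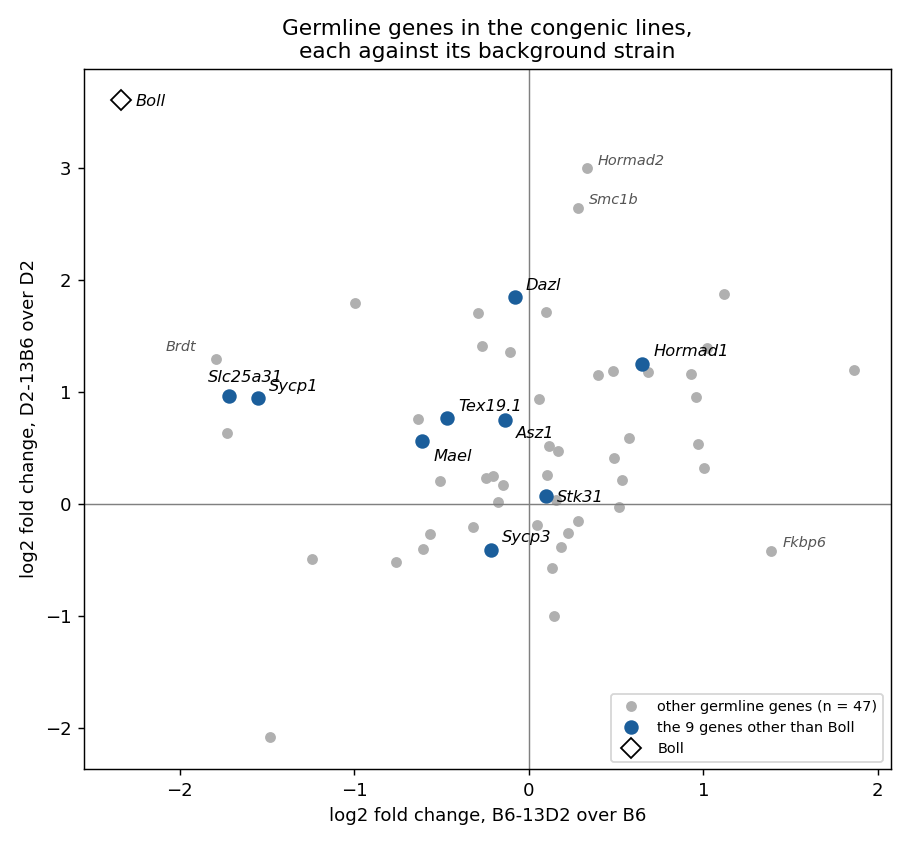
Log2 fold change in B6-13D2 over B6 (x axis) against that in D2-13B6 over D2 (y axis) for the 9 germline genes, Boll and 47 other germline genes. The upper left field, where a gene is higher with the B6 segment on either background, holds Boll, Brdt, Slc25a31, Sycp1, Tex19.1 and Mael among others.

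A list of 12 genes of DNA methylation held enzymes and cofactors that write or keep it and the Tet genes and Tdg, which act in its removal. Of these, 11 were tested. In D2 over B6, 10 were called (3 higher, 7 lower), in B6-13D2 over B6 8 were (5 higher, 3 lower), and in D2-13B6 over D2 8 were (all 8 higher), beside 60.0%, 58.3% and 57.3% of all genes. With scaling to stem cell markers the splits were 6 higher and 4 lower, 3 and 6, and 4 and 2, where 69.7% and 7.21%, 14.2% and 45.2%, and 13.3% and 49.2% of all genes were higher and lower. Dnmt1, the maintenance methyltransferase, had 325 ± 3.96 CPM for B6, 258 ± 9.60 for D2, 386 ± 9.42 for B6-13D2 and 287 ± 5.00 for D2-13B6. Uhrf1, its partner at hemimethylated sites, was read at 554 ± 24.3, 416 ± 9.08, 884 ± 16.2 and 468 ± 7.92 CPM in the same order. Both rose in B6-13D2 over B6, by 0.25 and 0.68 on the log2 scale (adjusted p = 6.49e-06 and 1.55e-11). The call of Dnmt1 was lost with scaling to stem cell markers (0.09, adjusted p = 0.111). Dnmt3a, a de novo methyltransferase, was 75.9 ± 2.77, 48.2 ± 1.17, 51.2 ± 2.86 and 97.5 ± 1.2 CPM, higher in both groups with the B6 segment. Its log2 fold change was -0.57 in B6-13D2 over B6 and 1.02 in D2-13B6 over D2 (adjusted p = 3.86e-09 and 1.97e-12). Dnmt3b, the other de novo enzyme, was lowest in B6 at 96.2 ± 5.01 CPM and was 151 to 181 CPM in the other group means. Dnmt3l, their cofactor, had 80.6 ± 4.89 CPM for B6, 173 ± 3.29 for D2, 130 ± 2.71 for B6-13D2 and 237 ± 7.16 for D2-13B6.

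The 17 genes of PRC1.6 and its partners were all tested, with 13 called in D2 over B6 (4 higher, 9 lower), 12 in B6-13D2 over B6 (9 higher, 3 lower) and 16 (9 higher, 7 lower) in D2-13B6 over D2, beside 60.0%, 58.3% and 57.3% of all genes. None passed 1 log2 unit in these 3 comparisons (0 of 17). With scaling to stem cell markers the counts were 13 (13 higher, 0 lower), 6 (1 higher, 5 lower) and 10 (2 higher, 8 lower), with the same shares over all genes, so the balance of directions in this list depends on the scaling. E2f6 was lower in each congenic line than in its background strain, by 0.51 in B6-13D2 (log2 fold change -0.51, SE 0.053) and by 0.37 in D2-13B6 (-0.37, SE 0.049), with adjusted p of 1.78e-07 and 4.90e-06. It had 29.9 ± 1.66 CPM for B6, 33.3 ± 0.989 for D2, 21.05 ± 0.340 for B6-13D2 and 25.8 ± 0.490 for D2-13B6. Mga and Pcgf6 were higher in each congenic line, Mga by 0.19 and 0.24 and Pcgf6 by 0.35 and 0.14 on the log2 scale. With scaling to stem cell markers Mga was called in neither (0.03 and 0.0070), and Pcgf6 turned to -0.09 in D2-13B6 over D2, where its call was also lost without D2-13B6 replicate 3 (adjusted p = 0.0872). L3mbtl2 rose by 0.47 in D2-13B6 over D2, and its value in B6-13D2 over B6 was 0.03 (adjusted p = 0.427), 0.09 with RLE size factors (adjusted p = 0.0184) and -0.13 with scaling to stem cell markers (adjusted p = 0.00673). Whether any of these levels bears on the germline genes was not tested.

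The 4 group means of other genes were compared with those of Boll and Dazl by the same root mean square distance, over 4194 tested genes with enough level and range. The nearest to Boll were Slc1a1 (0.37), A2m (0.45), Gm14300 (0.59), Usp26 (0.60) and Cdhr1 (0.63). The nearest to Dazl were Zfy1 (0.06), Acsl6 (0.12), Ldhal6b (0.16), Sohlh2 (0.17) and Plch1 (0.19). Sohlh2, a germ cell transcription factor, had 15.6 ± 0.921 CPM for B6, 10.5 ± 1.25 for D2, 13.0 ± 0.650 for B6-13D2 and 27.8 ± 0.439 for D2-13B6. With 4 points a gene, these distances are descriptions.

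Marker genes placed the libraries as embryonic stem cells, with all 8 stem cell markers, among them Pou5f1, Sox2 and Nanog, above 1 CPM in every library. Their summed level was 4645 to 4964 CPM for B6, 3201 to 3286 for D2, 5382 to 5637 for B6-13D2 and 3900 to 3948 for D2-13B6. The 8 fibroblast markers, which feeder cells would carry, summed to 9383 to 10191 CPM for B6, 14177 to 16967 for D2, 3095 to 3182 for B6-13D2 and 7731 to 8055 for D2-13B6, mostly from collagen genes. In B6-13D2, 2 of them were under 1 CPM in every library, Dcn (mean 0.640 CPM) and Lum (0.647 CPM). Dcn did not follow the sum between D2 (2.81 CPM) and D2-13B6 (2.94 CPM). The 9 markers of spermatocytes and spermatids summed to 1.03 to 3.21 CPM in all libraries, and Tnp1 was at 0 in every library of B6, D2 and D2-13B6. The 8 markers of primordial germ cells summed to 281 to 289 CPM for B6, 155 to 158 for D2, 383 to 389 for B6-13D2 and 166 to 169 for D2-13B6. Kit alone had means of 162, 76.6, 242 and 93.5 CPM in that order, and other members did not follow the sum. Nanos3 was highest in D2 (1.76 CPM) and Dnd1 in D2-13B6 (12.8 CPM). Dppa3 and Ddx4 were lower in B6-13D2 (9.26 and 8.92 CPM) than in B6 (18.4 and 13.6 CPM). The 8 markers of 2-cell-like cells summed to 41.6 to 43.8 CPM for B6, 158 to 192 for D2, 36.6 to 37.8 for B6-13D2 and 27.7 to 31.4 for D2-13B6. In D2-13B6 over D2 all 7 tested members of that list were lower, with a median log2 fold change of -2.76. Primitive endoderm markers (7 genes) summed to 15.1 to 43.7 CPM and neural markers (6 genes) to 91.1 to 144 CPM over all libraries. Both sums were lowest in B6-13D2 and highest in D2, but not every gene followed them. The neural Sox1 (7.04 CPM) and the endoderm gene Sox7 (0.838 CPM) had their highest means in B6-13D2. Gata4, of endoderm, had its lowest mean in D2 (1.54 CPM). The 7 trophoblast markers summed to 31.5 to 35.9 CPM for D2-13B6 and 22.5 to 30.6 CPM in the other libraries. Tfap2a made up 15.7 CPM of the D2-13B6 sum, while Eomes (4.16 CPM) and Krt7 (0.880 CPM) had their lowest means there and Gata3 was highest for D2 (6.10 CPM). In bulk RNA, fewer cells of a type and less RNA per cell cannot be told apart, and the part of these cell types in the germline gene levels was not tested. Library totals were 22184196 to 36411799 expected counts. The columns of both congenic groups carry a prefix that the parental columns lack, and what it records cannot be told apart from the congenic state.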

How the data were processed

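RNA-seq counts came from 1 table of 12 libraries with 43346 gene IDs. Per the submitters' processing notes, Bowtie 1.0.0, edgeR 3.34.1 and the build mm10 were used, and the table's title names EMASE; strand use and annotation release are not given in the sources used here. The values are expected counts as deposited by the authors, of which 88.1% were whole within 1e-06. GENCODE M21 gave symbols for 42462 IDs, and the other 884 held 0.361% of reads. All columns were used (0 left out).

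Counts were rounded and tested with edgeR 4.0.16 in R 4.3.3: filterByExpr (minimum count 10), TMM, 4 group means in a quasi-likelihood fit, and Benjamini-Hochberg adjustment over 17148 genes within each of 6 comparisons. A gene at an adjusted p under 0.05 is called. SE is the absolute log2 fold change over the square root of F. CPM uses TMM-scaled library sizes. The steps were tested on simulated data. Replicate pairs differed beyond sampling noise, with a chi-square per degree of freedom of 1.96 to 8.24.

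The genes, lists and tests were chosen with earlier results of these data known. Named genes of the germline list were the 3 highest and 3 lowest called log2 fold changes among genes whose mean log2 CPM was 0 or more, and any called in opposite directions by 1 in both congenic comparisons. Replicate numbers were checked as pairs and did not pair samples. Alternatives were RLE size factors, DESeq2 1.42.0, no filter, a mean CPM of 1, a fold change minimum, a replicate block, only the libraries compared, each library left out and, added after seeing the data, scaling to stem cell markers. That scaling replaced TMM and set each library's size by the geometric mean of its counts for the 8 stem cell markers. These were Pou5f1, Sox2, Nanog, Zfp42, Esrrb, Klf4, Tfcp2l1 and Dppa5a.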

Additional observations from a re-analysis of the deposited data

Results flagged for a closer look

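The effect of the D2 segment in place of the B6 segment differed between backgrounds for 4 of the 9 genes, by a test of the difference itself in edgeR, which is the same contrast as congenic against parental lines (64.5% of all genes were called in it). Segment effects here cannot be told apart from differences between lines or from what the prefix of the congenic columns records. For Dazl the effect was -0.08 on the B6 background and -1.85 on the D2 background on the log2 scale, a difference of 1.76 (SE 0.097, adjusted p = 2.22e-11). For Hormad1 the effects had opposite signs, 0.65 and -1.25, a difference of 1.90 (SE 0.100, adjusted p = 1.12e-11). For Sycp1 they were -1.55 and -0.95, a difference of -0.60 (SE 0.161, adjusted p = 0.00323). For Tex19.1 they were -0.47 and -0.77, a difference of 0.30 (SE 0.078, adjusted p = 0.00249), and in the contrast of congenic against parental lines Tex19.1 (0.15) less the median of chromosome 11 (0.21) was -0.0541. With scaling to stem cell markers, the value of Tex19.1 in that contrast turned to -0.0424 and was no longer called (adjusted p = 0.288), while Dazl (0.69), Hormad1 (0.76) and Sycp1 (-0.50) kept their direction and call.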

How the results depend on the processing

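Requiring a log2 change of 1 or more in size, the called genes numbered 1937 in D2 over B6, 2478 in B6-13D2 over B6, 1537 in D2-13B6 over D2, 4821 in B6-13D2 over D2, 1994 in D2-13B6 over B6 and 1726 in congenic against parental lines. The germline genes called then numbered 2, 2, 2, 3, 5 (with Asz1, tested only through D2-13B6) and 0, and 0 followed the segment allele. Under the other settings, libraries left out aside, the germline genes called numbered 6 to 9, 4 to 6, 5 to 6, 4 to 8, 5 to 7 and 4 to 6 in the same order. With single libraries left out they numbered 6 to 8, 5, 6, 4 to 6, 6 and 4 to 5. The replicate block gave 8, 5, 6, 6, 6 and 4, losing Asz1 in D2 over B6, and changed no other call of the germline genes. The mean correlation of same-numbered samples was -0.01 over 18 pairs (-0.12 to 0.07).

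Scaling to stem cell markers moved the median of all genes by 0.48, -0.16, -0.23, -0.64, 0.26 and -0.19 on the log2 scale in the order above, and single values moved with it. It turned the sign in B6-13D2 over D2 for Dazl (-0.10), Mael (-0.55), Boll (-0.55), Hormad1 (-0.60) and Tex19.1 (-0.32), in D2-13B6 over B6 for Mael (0.11) and Tex19.1 (0.24), for Stk31 in B6-13D2 over B6 (-0.0634), D2-13B6 over D2 (-0.16) and congenic against parental lines (-0.11), and for Tex19.1 in the last (-0.0424). For the other named genes it turned, in D2-13B6 over D2, Dnmt1 (-0.0724), Uhrf1 (-0.0625), Dnmt3b (-0.16) and Pcgf6 (-0.0872), and in B6-13D2 over B6 L3mbtl2 (-0.13). It lost the calls of Dazl, Mael and Slc25a31 in D2 over B6, of Dazl in B6-13D2 over D2 (adjusted p = 0.234) and of Tex19.1 in congenic against parental lines (0.288). It called Dazl in B6-13D2 over B6 (-0.24), Mael, Hormad1, Tex19.1 and Stk31 (-0.82) as lower in B6-13D2 over D2 (adjusted p from 3.88e-07 to 0.00140), Tex19.1 as higher in D2-13B6 over B6 (2.95e-04), and Mael, Sycp3 and Slc25a31 as lower in congenic against parental lines (0.0483, 0.0266 and 0.0258). The other reversals were of values near 0 or of low counts. In congenic against parental lines Mael was 0.0088 with RLE, 0.0098 with DESeq2, and 0.0093, 0.0020 and 0.035 without B6 replicate 2, D2 replicate 2 or B6-13D2 replicate 1 (lowest -0.0664). In D2-13B6 over B6 Tex19.1 was 0.033 with RLE and with DESeq2, 0.044 with only the libraries compared and 0.0078 without B6 replicate 3 (lowest -0.0601 with single libraries left out). In B6-13D2 over D2 Boll was -0.0821 without D2 replicate 3 (highest 0.37 with single libraries left out) and Hormad1 -0.010 without D2 replicate 1. Asz1 in B6-13D2 over B6 was 1.49 without B6 replicate 2 and 0.16 without B6-13D2 replicate 1, and at lowest -0.56 without B6 replicate 3. Counts under about 10 a library limit Asz1, Boll, Sycp3 and Slc25a31.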
